A study of Mus musculus with 30 samples.

Results

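The nuclear genes of oxidative phosphorylation encode the protein subunits of the 5 enzyme complexes of the inner mitochondrial membrane that are made outside the mitochondrion. They were chosen by symbol, as the genes named Nduf followed by a subunit letter and number (complex I), Sdha to Sdhd (complex II), Uqcr and Cyc1 (complex III), Cox4 to Cox8 (complex IV) and Atp5 (complex V), with a mean of 1 TPM or more over all 30 libraries (TPM is a gene's transcript level, corrected for length and scaled to a fixed total per library). The symbol search found 84 genes and 81 passed the minimum, among 24421 genes in the tables, of which 11852 had a mean of 1 TPM or more. The 81 genes comprised 36 of complex I, 4 of complex II, 9 of complex III, 15 of complex IV and 17 of complex V. The 3 genes below the minimum belonged to complex IV. Cox8b and Cox8c were listed at a mean of 0 TPM and Cox7b2 at 0.0252 TPM, while the lowest genes kept were Cox4i2 at 5.60 TPM and Cox7a1 at 6.78 TPM.

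The study compared the transcriptomes of multipotent progenitors of mouse bone marrow, early blood progenitors downstream of the stem cell, and set out to ask what the transcription factor Bcl11a does in them. Mice labelled WTiMOS and KOiMOS gave the MPP3 (myeloid-biased) and MPP4 (lymphoid-biased) progenitors, which flow cytometry served to isolate. Each library carries the label T1 or T2, and the word fraction is used below only as a name for these 2 sets. The data form 10 groups of 3 libraries: T1 and T2 of KOiMOS MPP3 at 3 months of age, of WTiMOS MPP3 at 3 and at 24 months, and of WTiMOS MPP4 at 3 and at 24 months. The labels give no further genotype, driver, sex or treatment for these groups. They do not say what T1 and T2 stand for, or whether T1 and T2 came from the same mice. In MPP4 at both ages and in MPP3 at 24 months, T2 held Y-linked transcripts that were at or near 0 in T1 (values below). The labels also do not say whether the 3 replicates came from separate mice, so p-values measure only the spread between these libraries. Each of the 5 pairs of T1 and T2 came in a table of its own, so a T2 library was tested only against the T1 libraries of its table. Levels set side by side between tables carry no test, because the table and the condition cannot be told apart.

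Bcl11a itself, a zinc-finger repressor of transcription, separated T2 from T1 in the WTiMOS tables but not in the KOiMOS table. In KOiMOS MPP3 it stood at 68.8, 69.0 and 73.2 TPM in T1 and at 69.8, 64.3 and 70.6 TPM in T2 (log2 difference -0.04, limma adjusted p = 0.579). This is near the level of the WTiMOS T2 libraries of 3 months (73.8 to 85.3 TPM in MPP3). The labels do not say which gene the KO stands for, so these values check no label. T2 was higher than T1 by 0.78 on the log2 scale in WTiMOS MPP3 at 3 months (limma adjusted p = 0.000926), by 1.73 in MPP3 at 24 months (1.46e-05), by 0.71 in MPP4 at 3 months (1.72e-05) and by 1.37 in MPP4 at 24 months (5.76e-06).

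As background, complexes I to IV form the respiratory chain: complex I (NADH dehydrogenase) and complex II (succinate dehydrogenase, also an enzyme of the citric acid cycle) pass electrons through ubiquinone to complex III (cytochrome bc1), cytochrome c and complex IV (cytochrome c oxidase), and complex V (ATP synthase) uses the proton gradient to make ATP. Complexes I, III, IV and V also hold subunits encoded in mitochondrial DNA, which are listed at no gene of these tables, so only the nuclear share of each complex is described; complex II is wholly nuclear. Blood stem cells and early progenitors are known to rely less on respiration than their dividing descendants, and transcription factors named NRF1, GABP (NRF2) and YY1 are known to bind promoters of many nuclear respiratory genes. A few of the symbols need care: Ndufa4 is now counted with complex IV, Cox7a2l is a factor of respiratory supercomplexes, and Atp5s and Atp5sl are not subunits of the enzyme proper. Many of these genes have processed pseudogenes, and the sources used here do not say how reads shared with such copies were assigned.

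Promoter sequences are shown for 4 genes that carry a match to one of those factors' motifs and rose in T2 of MPP4 at 3 months, one each from complexes I, III, IV and V, and for Atp5b, which fell there and has no match. They were picked after their values were seen, so they cannot show whether motif and direction are related. Uqcrc1, Sdhb and Ndufs7 have a match and were called lower there in TPM as deposited. Under the other scalings described below, Uqcrc1 stayed lower, while Sdhb and Ndufs7 turned sign. Ndufa4, Uqcr10, Cox7a2 and Atp5e have no match in their windows and were called higher. Each line holds the first 210 of the 250 bases before the gene's start, read 5′ to 3′ on the gene's strand (positions -250 to -41 from the first transcribed base, which is position 0), from RefSeq on GRCm38.p6, with the motif match in capitals. Ndufa11 is at chr17:56717512-56717721 on the plus strand, with NRF1 letters on both strands, overlapping, from -60 to -51. Uqcr11 is at chr10:80406862-80407071 on the minus strand, with GABP letters from -66 to -59; a match to the NRF1 letters at its start (-4 to 3) lies outside the printed stretch. Cox6a1 is at chr5:115348999-115349208 on the minus strand, with NRF1 letters on both strands from -162 to -153. Atp5k is at chr5:108434440-108434649 on the minus strand, with NRF1 letters on both strands from -50 to -41. Atp5b is at chr10:128083057-128083266 on the plus strand.
Ndufa11: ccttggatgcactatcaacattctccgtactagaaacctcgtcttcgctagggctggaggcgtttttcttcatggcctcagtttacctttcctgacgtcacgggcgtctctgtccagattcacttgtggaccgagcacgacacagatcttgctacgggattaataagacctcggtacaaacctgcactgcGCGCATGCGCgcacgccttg
Uqcr11: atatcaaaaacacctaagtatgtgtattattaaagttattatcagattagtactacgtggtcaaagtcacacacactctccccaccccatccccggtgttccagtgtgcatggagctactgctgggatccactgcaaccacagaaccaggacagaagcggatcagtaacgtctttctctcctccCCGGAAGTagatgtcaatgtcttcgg
Cox6a1: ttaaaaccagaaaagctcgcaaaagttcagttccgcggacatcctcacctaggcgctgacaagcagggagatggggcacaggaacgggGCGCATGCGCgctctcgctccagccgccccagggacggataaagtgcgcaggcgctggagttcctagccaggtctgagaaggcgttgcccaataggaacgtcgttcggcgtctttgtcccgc
Atp5k: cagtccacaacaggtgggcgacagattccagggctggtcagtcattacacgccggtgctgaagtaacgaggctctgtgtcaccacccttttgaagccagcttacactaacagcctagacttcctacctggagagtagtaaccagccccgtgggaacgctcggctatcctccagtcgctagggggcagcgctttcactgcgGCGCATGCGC
Atp5b: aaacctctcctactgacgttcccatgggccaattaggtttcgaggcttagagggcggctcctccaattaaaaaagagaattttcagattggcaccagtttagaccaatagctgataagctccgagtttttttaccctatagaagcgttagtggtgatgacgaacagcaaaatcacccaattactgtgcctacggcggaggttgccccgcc

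RefSeq windows of 250 bases before to 50 bases after the start were found for 64 of the 81 genes (69 windows). The letters searched, on both strands, were GCATGCGC for NRF1, CCGGAAGT for GABP and AAGATGGC for YY1, and no letters of one motif are part of another. NRF1 letters stood in the windows of 10 genes (15.6%), against 4.0% of all 17224 genes with a window and 6.31% of the 8927 expressed ones (mean of 1 TPM or more). The NRF1 letters were shortened after these values were seen; with GC before them, as first searched, they stood in 5 genes (7.81%), against 1.47% of all and 2.50% of expressed genes. YY1 letters stood in 9 genes (14.1%), against 3.63% and 5.61%. GABP letters stood in 5 genes (7.81%), against 5.65% and 9.69%. At least 1 of the 3 motifs was found for 23 genes (35.9%), against 12.4% of all and 20.0% of expressed genes with a window. The YY1 letters lay at or after the start in 8 of their 9 genes, Ndufa3, Ndufa9, Ndufb8, Ndufc1, Ndufs4, Ndufs6, Ndufs7 and Atp5j2, and before it in Atp5j. The NRF1 letters lay before the start in 8 genes, Ndufa6, Ndufa8, Ndufa11, Sdhb, Cox6a1, Atp5g2, Atp5k and Atp5l, and at or after it in Uqcr11 and Uqcrc1. No test of the T2 to T1 difference against the presence of a motif was made.

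The TPM values of each library have the same total, so a gene's TPM is its share of the library's transcripts corrected for transcript length, and the read depth behind it is unknown. The highest means over all 30 libraries, which pool groups of very different level, were those of Ndufa4 (mean 2854 TPM), Cox4i1 (1780 TPM), Uqcr11 (1294 TPM), Uqcrb (1271 TPM), Atp5h (1194 TPM), Atp5l (1158 TPM), Cox6b1 (1152 TPM) and Ndufb8 (1126 TPM). The order differed between groups: the group mean of Ndufa4 ran from 763 to 7034 TPM, and in all 4 groups of 3-month MPP3 it (763 to 930 TPM) was below that of Cox4i1 (1196 to 1944 TPM). The lowest of complex I were Ndufs1, an iron-sulphur subunit of the electron path (83.3 TPM), and Ndufa11 (83.9 TPM); in complex III the lowest was Uqcrc2 (227 TPM) and in complex V Atp5sl (34.1 TPM) and Atp5s (55.9 TPM). Within complex II, Sdhb, the iron-sulphur subunit, had the highest mean over all libraries (689.6 TPM) and the membrane anchor Sdhc the lowest (175 TPM), but Sdha was the lowest in both fractions of MPP4 at both ages and Sdhd in both fractions of 3-month WTiMOS MPP3.

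Summed over the 81 genes, the tables differed widely in level. In KOiMOS MPP3 at 3 months the sum was 27316 ± 717 TPM in T1 and 28509 ± 1185 TPM in T2 (mean ± SD, n = 3 here and below). WTiMOS MPP3 at 3 months had 29243 ± 262 and 27619 ± 1996 TPM. At 24 months, WTiMOS MPP3 had 69159 ± 3377 and 66696 ± 5969 TPM. The 4 groups of MPP3 at 3 months thus held 2.73 to 2.92% of all TPM in these genes, and the other 6 groups 5.24 to 8.17%. In the first 3 of the 5 tables the T1 and T2 sums overlapped. They did not overlap in either MPP4 table: at 3 months the T1 libraries had 53869, 52886 and 51392 TPM and the T2 libraries 80890, 82269 and 81969 TPM, and at 24 months the order was opposite, with 60510, 66021 and 64401 TPM in T1 and 52311, 52606 and 52393 TPM in T2.

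**Figure D1:**
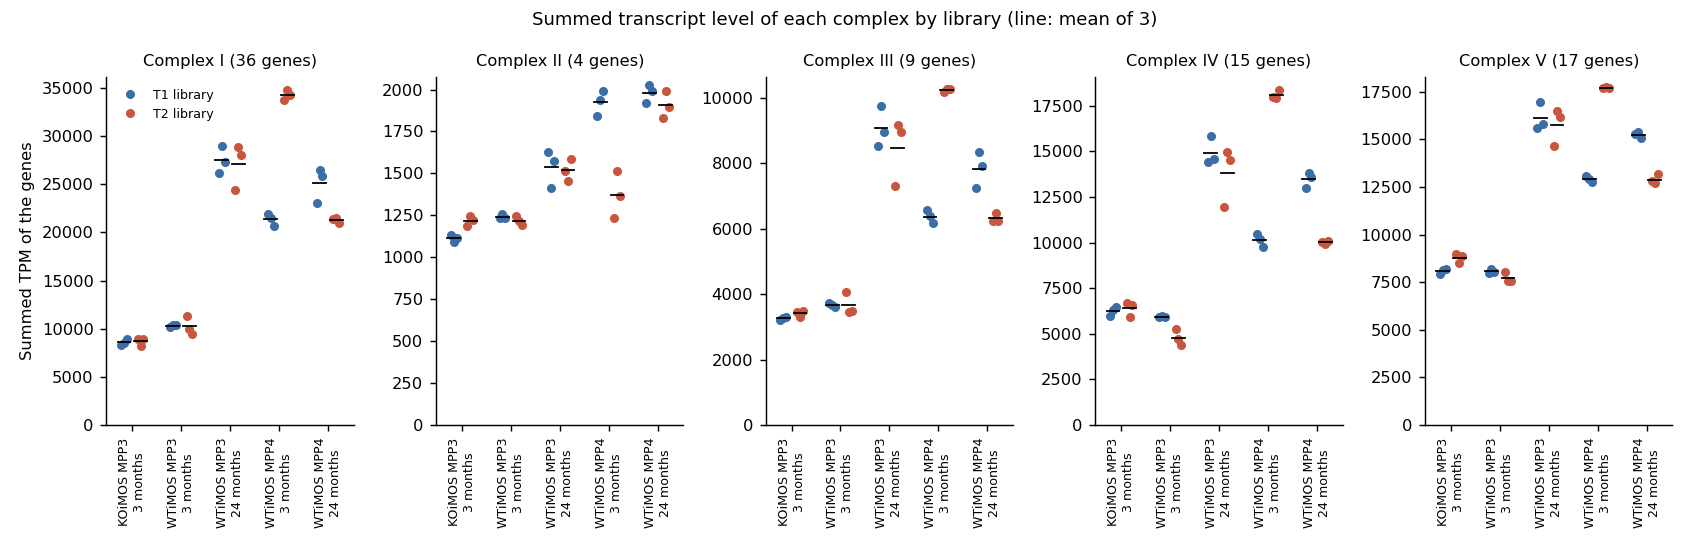
Summed TPM of the nuclear subunits of each complex in every library (points) with the mean of 3 libraries (line), for T1 and T2 of the 5 tables. In MPP4 the T2 libraries lie above T1 at 3 months in complexes I, III, IV and V and below T1 in complex II, and at 24 months they lie below T1 in complexes I, III, IV and V.

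The largest shift between T1 and T2 was in WTiMOS MPP4 at 3 months. Of the 81 genes, 55 were higher and 19 lower in T2 (limma on log2(TPM + 1), Benjamini-Hochberg adjusted p under 0.05), and the median log2 difference was 0.63. Over all genes tested, 8.71% were called higher and 72.6% lower there, with a median of -0.74, so most genes went down in share while most respiratory genes went up. The median over all genes depends on the scaling. With a rescaling by the median ratio of all genes, 67 of the 81 were called higher and 7 lower with a median of 1.54, against 3292 genes higher and 2559 lower in all (median 0.04). With the trend on transcript length and GC content removed, 51 were higher and 10 lower with a median of 0.26, against 2277 and 3001 genes. The call was the same in all 3 scalings for 45 of the 55 genes higher in T2 and for 7 of the 19 lower ones.

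Complex IV rose most. Its summed level went from 10141 TPM in T1 to 18102 TPM in T2, a ratio of 1.78, and 12 of its 15 genes were called higher and none lower. Cox8a, a small membrane subunit, had 1006, 1009 and 978 TPM in T1 and 2041, 2102 and 2207 TPM in T2, and Cox7a2 had 531, 498 and 496 TPM in T1 and 1143, 1113 and 1099 TPM in T2. All T2 libraries were above all T1 libraries for both genes (Cox8a log2 difference 1.08, limma adjusted p = 1.9e-10; Cox7a2 1.14, 3.25e-10). Cox4i1, the largest nuclear subunit, rose less, from 1500, 1458 and 1446 TPM to 1977, 1990 and 2014 TPM (log2 difference 0.44). Cox6a2, the isoform of subunit VIa known from heart and skeletal muscle, had 130, 128 and 134.5 TPM in T1 and 129, 157 and 145 TPM in T2; the groups overlapped, and the gene was not called here (0.13), was called higher after rescaling (1.04) and lower after removal of the length and GC trend (-0.26).

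Complexes I and III were higher in sum while some of their largest subunits fell. The sum of complex I went from 21363 to 34286 TPM (ratio 1.60), with 28 of 36 genes called higher and 6 lower, and that of complex III from 6371 to 10237 TPM (ratio 1.61), with 5 of 9 genes higher and 4 lower. Ndufa4 had 3423, 3262 and 2973 TPM in T1 and 7248, 7021 and 6832 TPM in T2 (log2 difference 1.13, SE 0.05, limma adjusted p = 1.89e-10). Ndufa7, an accessory subunit of the matrix arm, rose by 0.95 (1.2e-09). Against this, Ndufv1, which binds the flavin that accepts electrons from NADH, had 85.4, 83.9 and 87.7 TPM in T1 and 25.1, 26.5 and 24.7 TPM in T2 (log2 difference -1.71, SE 0.10, limma adjusted p = 1.69e-09). T1 and T2 did not overlap for Ndufv1, and it stayed called lower under the other 2 scalings.

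In complex III the small subunits Uqcrb and Uqcr10 rose and the large core proteins fell. Uqcrb, which helps to hold the ubiquinone site, had 1380, 1288 and 1201 TPM in T1 and 2916, 2676 and 2733 TPM in T2 (log2 difference 1.11, limma adjusted p = 6.03e-10), and Uqcr10 rose by 0.93 (1.63e-09). Uqcrc1, a core protein without redox centre, had 335, 388 and 426 TPM in T1 and 70.0, 77.4 and 82.2 TPM in T2 (-2.30, SE 0.09, 1.09e-10), the steepest fall among the 81 genes. Its partner Uqcrc2 fell by 1.28 on the log2 scale (5.95e-09). The 2 redox subunits were called lower as well: Cyc1, cytochrome c1, by -1.06 (3.2e-07) and Uqcrfs1, the Rieske iron-sulphur protein, by -0.42. Of these 4, Uqcrc1 and Uqcrc2 were also called lower under both other scalings, while Cyc1 was called in neither and Uqcrfs1 was called higher after rescaling.

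Complex V split in the same way. Its sum went from 12916 to 17713 TPM (ratio 1.37), with 10 of 17 genes called higher and 5 lower. Atp5e, a small stalk subunit, had 628, 636 and 620 TPM in T1 and 1256, 1280 and 1307 TPM in T2 (log2 difference 1.03, limma adjusted p = 4.04e-10), and Atp5l, a subunit of the membrane part, rose by 1.04 (7.34e-10). The 2 subunits that form the catalytic head fell: Atp5b, the β subunit, had 949, 1054 and 1129 TPM in T1 and 284, 255 and 267 TPM in T2 (-1.95, 5.26e-11), and Atp5a1, the α subunit, had 678, 705 and 717 TPM in T1 and 252, 226 and 240 TPM in T2 (-1.55, 1.05e-10). Both were called lower under all 3 scalings.

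In complex II all 4 genes were called lower in T2, beside 72.6% of all genes, and its sum went from 1842, 1939 and 1994 TPM to 1233, 1517 and 1367 TPM (ratio of means 0.713). Sdha, the flavoprotein that oxidises succinate, had 161, 162 and 157 TPM in T1 and 94.5, 70.3 and 75.3 TPM in T2 (log2 difference -1.0, limma adjusted p = 5.21e-07). Sdhb had 977, 988 and 1020 TPM in T1 and 701, 861 and 784 TPM in T2 (-0.35, 0.000225). Of the membrane anchors, Sdhc had 158, 192 and 197 TPM in T1 and 125, 152 and 136 TPM in T2 (-0.40, 0.00164), and Sdhd 546, 598 and 620 TPM in T1 and 313, 433 and 371 TPM in T2 (-0.67, 0.000104). T1 and T2 did not overlap for any of the 4, nor for 76 of the 81 members in all. The share without overlap over all genes was not computed, and 81.3% of all genes were called in either direction. These directions rest on the scaling: after rescaling Sdhb (0.56) and Sdhc (0.51) were called higher and Sdha (-0.10) and Sdhd (0.24) were not called, and with the length and GC trend removed Sdhc (0.48) was called higher, Sdhd (-0.31) lower and the other 2 (Sdha -0.10, Sdhb 0.14) were not called. The ratio of summed complex I to summed complex II levels within a group, which no common factor can change, was 11.1 in T1 and 25.0 in T2. A trend on transcript length can change it, as the complex II transcripts (1142 to 3171 bases) are longer than the median member (850 bases). Its complex I sum includes Ndufa4, at a mean of 3220 TPM in T1 and 7034 TPM in T2.

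**Figure D2:**
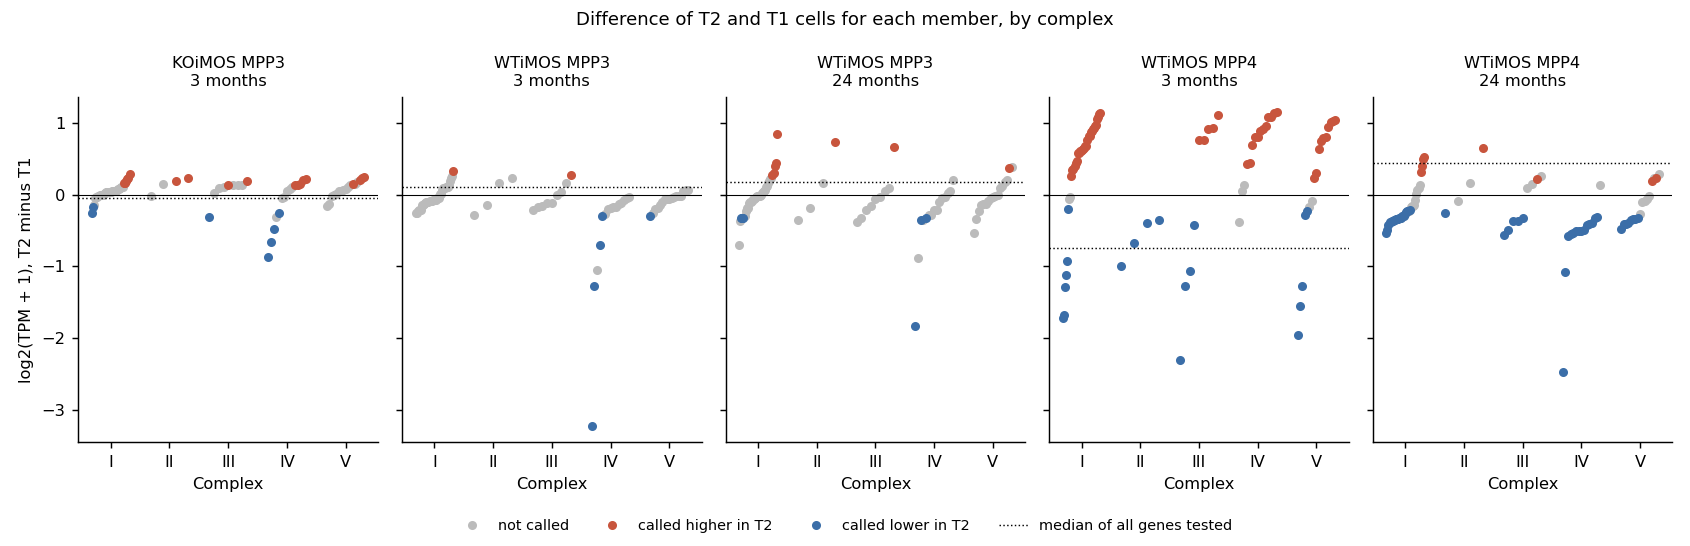
T2 minus T1 on the log2(TPM + 1) scale for each of the 81 genes by complex, in the 5 tables; red points are called higher, blue lower and grey not called, and the dotted line is the median of all genes tested. In MPP4 at 3 months most points lie above 0 (median 0.63) with the members of complex II below it, and at 24 months most lie below 0 (median -0.32).

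Transcript length moved with these differences. The members are short, with a median transcript of 850 bases against 2784 for all genes of 1 TPM or more. Length is that of the longest transcript marked principal in the annotation, where one was marked. This puts Atp5g1 (4715 bases) and Ndufb2 (4371 bases) among the longest members. Whether these cells use those transcripts was not tested, and the length classes and the trend removal rest on this choice. Over the 80 members with an annotated length, the Spearman correlation of length with the T2 to T1 difference in MPP4 at 3 months was -0.629 (over all genes -0.154); the points share the same 6 libraries, and the value is a description. The 30 members of up to 700 bases had a median difference of 0.90 (all genes of that length 0.42), the 17 of 700 to 1000 bases 0.45 (0.21), the 26 of 1000 to 2000 bases -0.13 (-0.78) and the 7 longer ones -0.93 (-0.80). At 24 months the order was opposite, with a correlation of 0.560 (0.277 over all genes) and medians of -0.36 (all genes -0.11), -0.32 (-0.02), -0.04 (0.31) and 0.20 (0.50) in the same length classes. In the MPP3 tables the correlation over members was 0.290 in KOiMOS (all genes -0.025), 0.480 in WTiMOS at 3 months (0.087) and 0.192 at 24 months (0.077). A measure of RNA integrity was not used here, and the part of length in the differences was not tested beyond the fit with its trend removed.

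**Figure D3:**
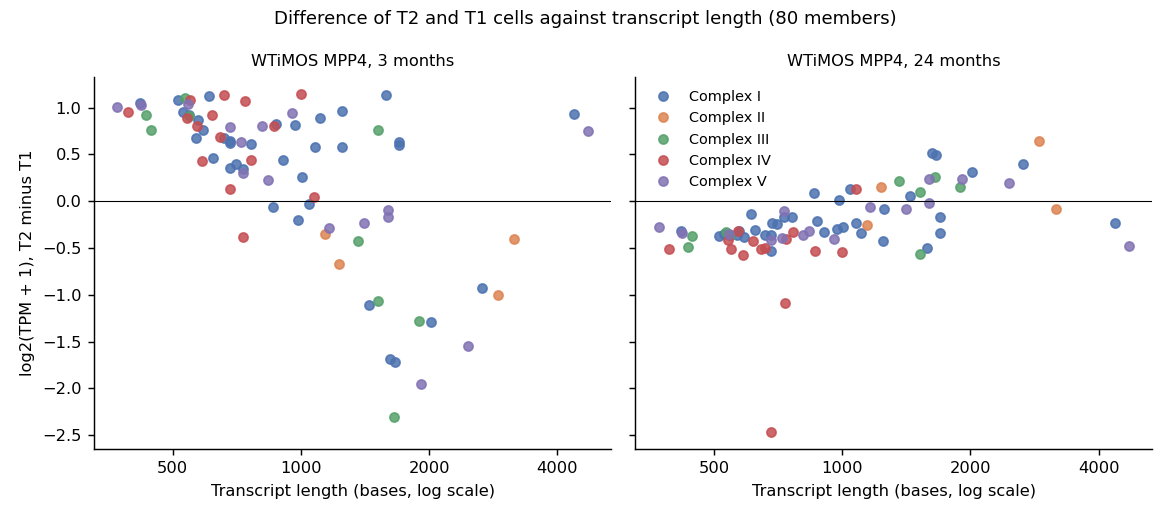
T2 minus T1 on the log2(TPM + 1) scale against transcript length in bases (log axis) for 80 members, in WTiMOS MPP4 at 3 and 24 months. At 3 months the shortest transcripts lie highest (Spearman -0.629) and at 24 months they lie lowest (0.560).

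In WTiMOS MPP4 at 24 months the respiratory genes went the other way. Of the 81 genes, 8 were called higher and 50 lower in T2, with a median log2 difference of -0.32, while over all genes 58.2% were called higher and 7% lower (65.2% in either direction) with a median of 0.43. After rescaling 0 members were higher and 72 lower (median -0.75; 1804 genes higher and 2105 lower in all), and with the length and GC trend removed 0 were higher and 49 lower (median -0.28; 1519 and 1719 genes). Of the 50 lower genes, 40 were called lower under all 3 scalings, and of the 8 higher genes, 0 were called higher in the other 2 (4 were called without the second T1 library). Complex IV fell most, with 14 of 15 genes lower, none higher, and a ratio of sums of 0.743. Complex I had 22 of 36 genes lower and 4 higher (ratio 0.849), complex III 5 of 9 lower and 1 higher (0.806), complex V 8 of 17 lower and 2 higher (0.845), and complex II 1 of 4 lower and 1 higher, with overlapping sums (0.964).

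Among the 81 genes, the one that separated the 24-month MPP4 fractions most was Cox6a2 (ENSMUSG00000030785.8 at chr7:128205435-128206387 on the minus strand, mm10). It had 144, 148 and 156 TPM in T1 and 24.6, 28.8 and 25.3 TPM in T2, with no overlap (log2 difference -2.46, SE 0.09, limma adjusted p = 4.18e-08). Cox7b, a small subunit encoded on the X chromosome (as are Ndufa1 and Ndufb11), had 698, 750 and 732 TPM in T1 and 510, 472 and 513 TPM in T2 (-0.54, 0.000129). Ndufs5 of complex I had 415, 416 and 440 TPM in T1 and 283, 297 and 300 TPM in T2 (-0.53, 0.000151), and Ndufv3 fell by 0.50 (0.000427). Uqcrq, a small subunit of complex III, had 868, 1024 and 949 TPM in T1 and 612, 669 and 631 TPM in T2 (-0.57, 0.000198), and Uqcr10 fell by 0.49 (0.00049). In complex V, Atp5h fell by 0.41 (0.000382) and Atp5g1, which encodes the c subunit of the rotor, by 0.48 (0.000454). The T2 libraries were below all T1 libraries for Cox7b, Ndufs5 and Uqcrq, and all 8 genes of these sentences were called lower under all 3 scalings.

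Few members were called higher at 24 months. Sdha had 104, 106 and 108 TPM in T1 and 176, 170 and 153 TPM in T2 (log2 difference 0.64, limma adjusted p = 0.000137). After rescaling it stood at 0.22 and was not called. Atp5a1 had 673, 639 and 667 TPM in T1 and 746, 750 and 771 TPM in T2 (0.20, 0.017), but was called lower after rescaling (-0.23) and with the length and GC trend removed (-0.26). Ndufs1 (0.39, 0.00291) turned to -0.026, Uqcrfs1 (0.22, 0.0191) to -0.20 and Atp5s (0.24, 0.0496) to -0.19 after rescaling. Sdhb was the member of complex II called lower (-0.26, 0.00923), and it was lower under the other scalings too. Atp5b was not called, at 0.23 (0.0663).

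In MPP4, 55 genes were called at both ages. Of these, 47 were higher in T2 at 3 months and lower in T2 at 24 months, 7 were lower and then higher, and 1 had the same direction. Over all genes, 8.71% were called higher and 72.6% lower at 3 months, and 58.2% higher and 7% lower at 24 months. Most members thus ran opposite to most called genes at each age. The share of all genes called in opposite directions at both ages was not computed. Whether such a turn is particular to the members is therefore not shown. The genes with printed promoters, picked after their values were seen, had these differences. Ndufa11 differed by 0.92 at 3 months and by -0.36 at 24 months, Uqcr11 by 0.76 and -0.37, and Cox6a1 by 0.80 and -0.31. Atp5k differed by 1.01 (limma adjusted p = 2.18e-05) and -0.27 (0.194, not called), and Atp5b by -1.95 and 0.23 (not called).

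**Figure D4:**
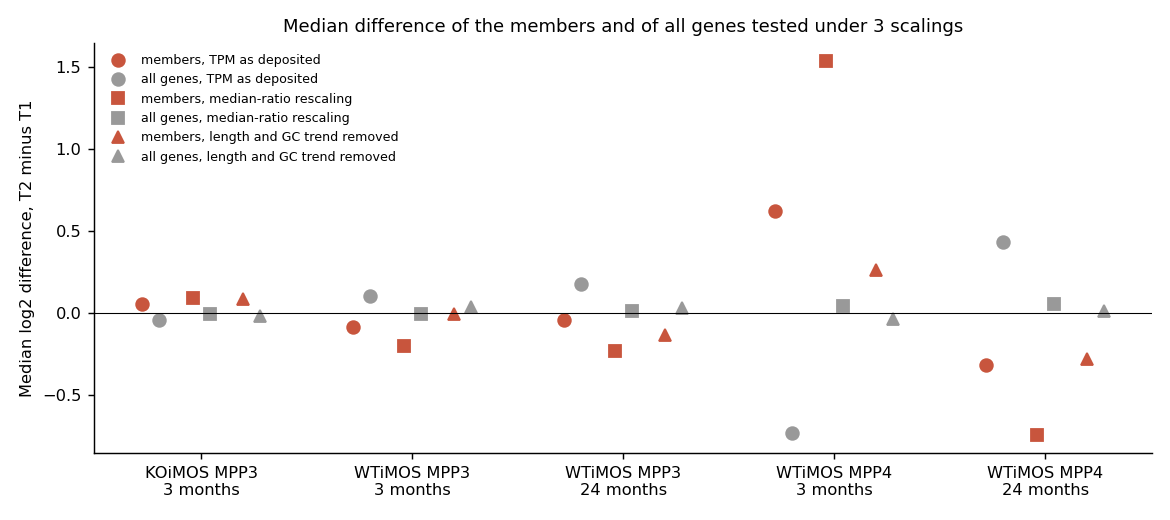
Median T2 minus T1 difference (log2) of the 81 genes and of all genes tested, in the 5 tables under 3 scalings: TPM as deposited, median-ratio rescaling, and the trend on length and GC content removed. The member median in MPP4 stays above 0 at 3 months (0.63, 1.54 and 0.26) and below 0 at 24 months (-0.32, -0.75 and -0.28), and the all-gene median moves to near 0 under both other scalings.

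In WTiMOS MPP3 at 24 months few members differed. T2 had 8 of the 81 genes higher and 6 lower (median -0.04), where 30% of all genes were called higher and 12% lower (42% in either direction, median 0.18). After rescaling the counts were 3 and 28 (median -0.23) and with the length and GC trend removed 9 and 20 (median -0.14), so the balance between higher and lower rests on the scaling. The shares of all genes above hold for TPM as deposited and not for these counts. Whether members stand apart from all genes under the other scalings is therefore not shown. Sdha had 89.8, 116 and 104 TPM in T1 and 188, 166 and 159 TPM in T2 (log2 difference 0.73, limma adjusted p = 0.000585), and Uqcrfs1 221, 213 and 215 TPM in T1 and 363, 324 and 339 TPM in T2 (0.66, 0.000188). Both genes, of complexes II and III, did not overlap between fractions and were called higher under all 3 scalings. Cox6a2 had 18.5, 14.5 and 16.6 TPM in T1 and 3.05, 4.87 and 3.97 TPM in T2 (-1.83, 1.25e-05). Ndufv2 (-0.33, 0.0125) and Ndufs8 (-0.33, 0.013), iron-sulphur subunits of complex I, were lower under all 3 scalings, as 5 of the 6 lower genes were; Cox7b (-0.33, 0.0202) was not called with the length and GC trend removed. Ndufa10 (0.40, 0.00701) was called higher only in TPM as deposited, and Atp5g2 (0.37, 0.00765) lost its call after rescaling. The first T2 library stood apart for many members, with Cox5b at 702 TPM against 1365 and 1339 TPM in the other two and Atp5k at 259 against 685.5 and 621 TPM; without it 13 genes were called higher and 12 lower, without the third T1 library 4 and 1, and without the second or the third T2 library 5 were called higher.

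In WTiMOS MPP3 at 3 months, 2 of the 81 genes were called higher and 5 lower in T2 (median -0.08; 8.39% and 5.96% of all genes, median 0.10). All the changes past the threshold in complex IV were downward: 4 of its 15 genes, and its summed level was 5942 TPM in T1 and 4782 TPM in T2 with no overlap (ratio 0.805). Cox4i1 had 1979, 2032 and 1821 TPM in T1 and 1197, 1308 and 1084 TPM in T2 (log2 difference -0.70, SE 0.07, limma adjusted p = 2.09e-05). Cox6a2 had 9.50, 12.2 and 9.76 TPM in T1 and 0.573, 0 and 0.160 TPM in T2 (-3.23, 1.19e-05). Cox4i2, the hypoxia-linked isoform of subunit IV, had 15.5, 13.2 and 14.3 TPM in T1 and 7.38, 3.37 and 5.86 TPM in T2 (-1.28, 0.00532), and Cox5a differed by -0.29. Atp5h was the member of complex V called lower (-0.30, 0.0215). The higher genes were Ndufv1, with 228, 207 and 217 TPM in T1 and 286, 262 and 272 TPM in T2 (0.33, 0.0125), and Uqcrc2 (0.28, 0.0424). Neither kept its call after rescaling, where 0 members were higher and 10 lower. The shares of all genes above hold for TPM as deposited and not for these rescaled counts. Of the 5 lower genes, 3 were called under all 3 scalings. Without the first T2 library, whose values lay above the other 2 T2 libraries for many small subunits (Cox7a2 215.6 TPM against 137 and 141 TPM), 26 genes were called lower; without any other single library 2 or 3 were. The number of higher genes ranged from 0, without the second T1 library, to 3.

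In KOiMOS MPP3 at 3 months the differences were small. T2 had 19 of the 81 genes higher and 7 lower (median 0.05; 15.9% and 20.4% of all genes, median -0.04), and all 19 were called higher under the other 2 scalings too, as 4 of the 7 lower genes were lower. Higher genes lay in all 5 complexes, 6 in complex I, 2 each in II and III, 5 in IV and 4 in V. Their fold changes stayed small: Ndufv1, with the largest change among them, had 186, 174 and 179 TPM in T1 and 213, 229 and 218 TPM in T2 (log2 difference 0.29, limma adjusted p = 0.000328), and Atp5g3, a gene of the c subunit, 317, 330 and 333 TPM in T1 and 408, 373 and 383 TPM in T2 (0.25, 0.000925). Sdhd had 301, 304 and 307 TPM in T1 and 345, 346 and 346 TPM in T2 (0.18, 0.002), and Sdhc (0.23, 0.00823), Atp5a1 (0.23, 0.00132), Cyc1 (0.19, 0.00387), Uqcrc1 (0.13, 0.0219), Cox7a2 (0.22, 0.00405) and Cox5b (0.21, 0.0189) were also higher. Without the second T1 library the number of higher genes was 10, and without the third the number of lower genes was 4.

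Of the 7 lower genes of KOiMOS MPP3, 4 encode alternative forms or partners of complex IV subunits. Cox7a2l had 492, 482 and 488 TPM in T1 and 402, 418 and 401 TPM in T2 (log2 difference -0.26, limma adjusted p = 0.000213). Cox6b2, known from testis, had 105, 110 and 111 TPM in T1 and 88.7, 69.8 and 76.0 TPM in T2 (-0.47, 0.000637). Cox6a2 was near the limit of the table, at 1.11, 1.46 and 1.46 TPM in T1 and 0.428, 0.455 and 0 TPM in T2 (-0.87, 0.00254), and Cox4i2 differed by -0.66. Outside complex IV, Uqcrh, the hinge protein of complex III, differed by -0.32 (0.00364). Ndufa4, with 868, 907 and 964 TPM in T1 and 790, 678 and 821 TPM in T2 (-0.26, 0.0176), and Ndufa6 (-0.18, 0.0499) were not called after rescaling.

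Whether the step from T1 to T2 itself differed between tables was tested in fits over the 12 libraries of 2 tables; these tests share tables and are not independent of each other. The step of KOiMOS MPP3 was higher than that of WTiMOS MPP3 at 3 months for 7 members and lower for 1 (7.29% and 12.5% of all genes, 19.8% in either direction). The 7 were Cox6a2 (difference of log2 steps 2.35, limma adjusted p = 0.000323), Cox4i1 (0.68, 0.00252), Cox5a (0.42, 0.00645), Atp5g3 (0.40), Sdhc (0.37), Atp5h (0.35) and Atp5a1 (0.26), and the 1 was Ndufa4 (-0.52, 0.0439), which lost its call after rescaling. Without the first T2 library of WTiMOS, 19 were higher, without the second T2 library of KOiMOS 16, and without the second T2 or any T1 library of WTiMOS 4. Between 24 and 3 months in WTiMOS MPP3, 8 members were higher and 1 lower (9.69% and 5.31% of all genes), among them Cox4i1 (0.76, 0.00032), Uqcrfs1 (0.67, 0.00134) and, lower, Ndufv2 (-0.44, 0.0252). Also higher were Cox6a2 (1.39), Sdha (0.56), Atp5g2 (0.47), Ndufa10 (0.47) and Atp5l (0.40). In both comparisons the size for Cox6a2 depends on the pseudocount, as T2 of WTiMOS MPP3 at 3 months held almost none of it. Without the first or the second T1 library of 3-month MPP3, 5 were higher, and the number of lower members ranged from 0 to 3 when single libraries were left out.

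Between 24 and 3 months in MPP4, 17 members had a higher and 56 a lower step (76.4% and 7.4% of all genes). Among the clearest were Uqcrc1 (2.56, limma adjusted p = 9.73e-10) and Atp5a1 (1.74, 6.52e-11) on the higher side and Cox6a2 (-2.59, 8.51e-11), Atp5e (-1.37, 3.08e-10) and Cox6b1 (-1.34, 2.21e-10) on the lower. Between MPP4 and MPP3 at 3 months 56 members were higher and 16 lower (7.43% and 57.7% of all genes, 65.1% in either direction), led by Cox6a2 (3.35, 2.13e-09), Cox8a (1.16, 2.41e-08) and Cox4i1 (1.14, 7.93e-09) against Uqcrc1 (-2.46, 2.35e-10), Ndufv1 (-2.04, 4.59e-10) and Atp5b (-1.90, 4.01e-10). The Cox6a2 value comes mostly from its step in MPP3 (-3.23), where T2 libraries held almost none of it. Its size thus depends on the pseudocount, and its step in MPP4 was not called. At 24 months 0 members were higher and 15 lower in MPP4 than in MPP3 (16.1% and 4.4%), led by Atp5l (-0.55, 0.00277), Ndufc2 (-0.46, 0.00715) and Uqcrfs1 (-0.44, 0.00947); without the first T2 library of MPP3 the counts were 3 and 40, and the lowest count without 1 library was 5 lower. All the genes named in these MPP4 comparisons kept their direction and call under the other 2 scalings.

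Several subunits are made from alternative genes, and their shares within a subunit do not depend on a common scaling factor. Cox6a2 made up 10.8% of the summed Cox6a1 and Cox6a2 level in T1 and 7.07% in T2 of MPP4 at 3 months, and 10.2% and 2.44% at 24 months. In MPP3 it was 1.50% in T1 and 0.0387% in T2 of WTiMOS at 3 months, 1.13% and 0.277% at 24 months, and 0.258% and 0.0551% in KOiMOS. In all 5 tables the T2 mean was below the T1 mean. Cox4i2 made up 0.104 to 0.733% of the Cox4i level, with the T2 mean below the T1 mean in each table (0.520 and 0.319% in KOiMOS MPP3, 0.264 and 0.126% in MPP4 at 24 months). Cox6b2 was 19.1 and 13.3% of the Cox6b level in KOiMOS MPP3, 14.6 and 15.0% in WTiMOS MPP3 at 3 months, and 4.44 to 6.46% in the other groups.

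**Figure D5:**
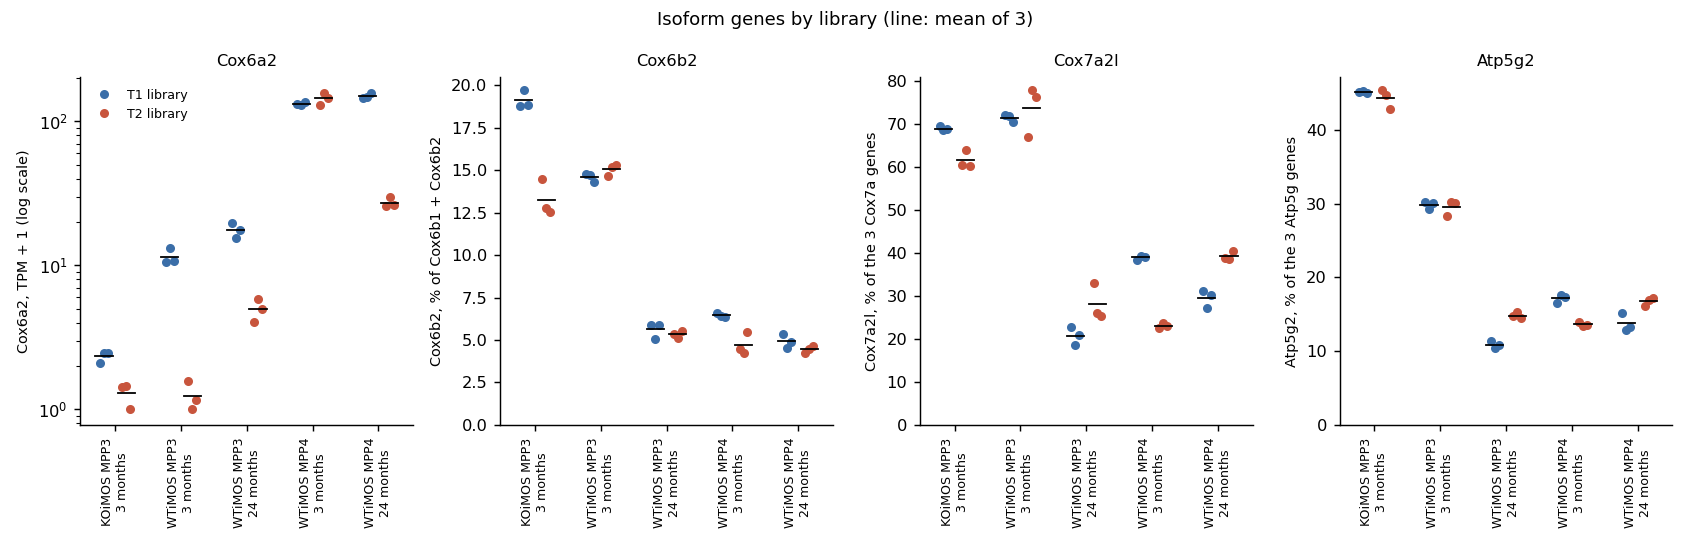
Cox6a2 as TPM + 1 (log axis) and the shares (%) of Cox6b2, Cox7a2l and Atp5g2 within their subunit, in every library (points) of T1 and T2 of the 5 tables. Cox6a2 is lower in T2 than in T1 in each MPP3 table and in MPP4 at 24 months, and the 3 shares are larger in the tables of 3-month MPP3 than in the others.

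The Cox7a and c-subunit genes separated 3-month MPP3 from the other groups more than T1 from T2. Within the Cox7a level, Cox7a2l made up 61.6 to 73.8% and Cox7a2 25.8 to 38.2% in 3-month MPP3, while the other 6 groups had 20.8 to 39.3% Cox7a2l and 59.9 to 78.2% Cox7a2. In MPP4 at 3 months Cox7a2l went from 39.0% in T1 to 23.1% in T2, and at 24 months from 29.5 to 39.3%. The c subunit of ATP synthase has 3 genes with 1 mature protein. Atp5g2 made up 45.1% of their level in T1 and 44.3% in T2 of KOiMOS MPP3, 29.9 and 29.5% in WTiMOS MPP3 at 3 months, and 10.8 to 17.2% elsewhere, where Atp5g3 held 46.6 to 49.3%. Atp5g1 held 50.2 and 51.4% in WTiMOS MPP3 at 3 months and 30.1 and 29.2% in KOiMOS MPP3. The ratio of complex I to complex II sums was 7.13 to 8.41 in 3-month MPP3, 17.9 in both fractions of 24-month MPP3, and 12.7 and 11.2 in T1 and T2 of MPP4 at 24 months.

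Other genes of the pathway were read from lists made for this purpose. In MPP4 at 3 months 12 of 46 assembly factors were higher and 27 lower, 1 of 18 carriers, cytochrome c and ubiquinone genes higher and 17 lower, 2 of 19 genes for the expression of mitochondrial DNA higher and 16 lower, 1 of 16 nuclear regulators higher and 11 lower, and 1 of 13 antioxidant and uncoupling genes higher and 10 lower. These stand beside the 72.6% of all genes called lower. After rescaling the same lists, in this order, had 23 and 10, 7 and 5, 7 and 2, 5 and 3, and 10 and 1 higher and lower genes, and with the length and GC trend removed 14 and 13, 3 and 7, 3 and 4, 5 and 1, and 8 and 2, so their direction rests on the scaling. Vdac1, the pore of the outer membrane, had 98.2 ± 5.32 TPM in T1 and 14.2 ± 3.22 TPM in T2 (log2 difference -2.73, limma adjusted p = 7.03e-10), and Atpaf2, which assembles the ATP synthase head, 49.2 ± 1.75 and 14.2 ± 1.37 TPM (-1.73, 8.68e-09); both were lower under all 3 scalings, as were Sirt3, the mitochondrial deacetylase (-1.39), Ucp2 (-1.38) and Tufm, a translation factor of mitochondria (-1.32). Slc25a4 (-0.94) and Slc25a5 (-0.86), the exchangers of ADP and ATP, and the regulators Myc (-0.91) and Nrf1 (-1.28) lost their call under at least 1 other scaling.

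Some genes of these lists rose with the small subunits. All 6 subunits and partners outside the naming rule were higher in MPP4 at 3 months under all 3 scalings, beside 8.71% of all genes in TPM as deposited, among them Usmg5, a small subunit of ATP synthase, with 789 ± 23.6 TPM in T1 and 1759 ± 114 TPM in T2 (log2 difference 1.15, limma adjusted p = 4.43e-10), Atpif1, the inhibitor of its reverse reaction (0.91), and Higd1a, a partner of complex IV (0.80). Cox17, the copper carrier for complex IV (0.91), Slirp, which stabilises mitochondrial mRNA (1.10), and Ssbp1, the DNA-binding protein (0.69), were higher in all 3 scalings, and Cox20 (0.85) in 2 of them. At 24 months 5 of the 6 were lower and none higher, beside 7% and 58.2% of all genes, with Dnajc15 at -0.45 (0.000371), Atpif1 at -0.38 (0.00268) and Higd2a at -0.32 (0.00341).

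In MPP4 at 24 months the other lists held 18 higher and 4 lower assembly factors, 6 and 2 carriers, 12 and 1 mitochondrial expression genes, 10 and 1 regulators and 7 and 0 antioxidant genes, beside 58.2% of all genes called higher. After rescaling these were 1 and 21, 2 and 7, 1 and 2, 1 and 2, and 0 and 5. Coq2, an enzyme of ubiquinone synthesis, had 59.4 ± 4.38 TPM in T1 and 111 ± 2.34 TPM in T2 (log2 difference 0.90, limma adjusted p = 2.9e-05), Vdac1 44.5 ± 4.70 and 80.2 ± 5.62 TPM (0.84, 0.000121), and Myc, which is known to drive mitochondrial genes, 108 ± 2.26 and 192 ± 16.0 TPM (0.82, 4.01e-05). These 3 and Acad9, an assembly factor of complex I (0.80, 0.000406), were higher under all 3 scalings. In WTiMOS MPP3 at 24 months, where 30% of all genes were higher and 12% lower, 16 of 46 assembly factors were higher and 2 lower, 6 and 1 of 18 carriers, 4 and 0 of 19 mitochondrial expression genes, 5 and 0 of 16 regulators and 5 and 0 of 13 antioxidant genes. The shares of higher assembly factors and carriers are near that of all genes. After rescaling the counts were 5 and 6, 4 and 2, 1 and 0, 1 and 1, and 2 and 1, to which the shares of all genes in TPM as deposited do not apply. Glrx5, which works in iron-sulphur cluster assembly, went from 209 ± 15.1 to 440 ± 31.8 TPM (1.07, 9.35e-06) and Cox11, a copper chaperone of complex IV, from 7.48 ± 0.962 to 16.8 ± 2.03 TPM (1.07, 0.000242), both under all 3 scalings.

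In WTiMOS MPP3 at 3 months, where 8.39% of all genes were higher and 5.96% lower, 4 assembly factors, 2 carriers and 3 mitochondrial expression genes were higher with none lower, 3 regulators were higher and 1 lower, and 1 antioxidant gene was higher and 3 lower; after rescaling these were 1 and 0, 1 and 0, 0 and 0, 2 and 1, and 0 and 4. Ucp2, the uncoupling protein of blood cells, went from 439 ± 4.83 to 228 ± 22.6 TPM (log2 difference -0.95, limma adjusted p = 6.92e-06) and Sod1, the superoxide dismutase of cytosol and intermembrane space, from 327 ± 29.4 to 197 ± 26.2 TPM (-0.73, 0.000401), with Gpx1 at -0.35 (0.000627), all 3 lower under the 3 scalings. In KOiMOS MPP3, beside 15.9% of all genes higher and 20.4% lower, the counts were 3 and 5 assembly factors, 8 and 1 carriers, 3 and 4 mitochondrial expression genes, 1 and 4 regulators and 4 and 1 antioxidant genes, higher and lower, and after rescaling 5 and 4, 10 and 1, 5 and 4, 1 and 4, and 4 and 1. Nnt, the transhydrogenase that makes NADPH, went from 40.3 ± 1.80 to 70.1 ± 4.38 TPM (0.78, 1.33e-06), Vdac3 from 303 ± 9.14 to 389 ± 9.29 TPM (0.36, 2.6e-05), and Timmdc1, an assembly factor of complex I, from 43.1 ± 3.61 to 28.1 ± 2.28 TPM (-0.60, 8.84e-05). Myc was higher in T2 in WTiMOS MPP3 at 3 months (0.43, 0.000988) and lower in KOiMOS MPP3 (-0.30, 4.23e-05). The shares of all genes in this paragraph hold for TPM as deposited and not for the rescaled counts.

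Other features of the libraries moved with T1 and T2, and their part in the differences above was not tested. All 10 progenitor markers were at 1 TPM or more in each of the 10 groups. The summed proliferation markers (15 genes) went from 2047 to 2974 TPM in KOiMOS MPP3 (14 genes higher), from 3286 to 2229 TPM in MPP4 at 3 months (14 lower) and from 3850 to 2984 TPM in MPP4 at 24 months (8 lower), so they were lower in sum in both MPP4 tables. Of all genes, 15.9% were called higher in KOiMOS MPP3, and 72.6% and 7% lower in MPP4 at 3 and 24 months. The marker counts rest on the scaling: after rescaling MPP4 had 4 higher and 6 lower at 3 months (median -0.20 against -1.09 before) and 14 lower at 24 months (-0.65 against -0.22). The shares of all genes in this paragraph hold for TPM as deposited and not for rescaled counts. Summed erythroid markers were higher in T2 in all 5 tables. The difference in TPM was largest in KOiMOS MPP3 (968 to 4030 TPM), while MPP3 at 24 months went from 326 to 1521 TPM. Mast and basophil markers went from 457 to 4640 TPM in KOiMOS MPP3. In MPP3 at 24 months their sum went from 2425 to 905 TPM, although 6 of the 8 genes were called higher and 2 lower. Over all genes 30% were called higher and 12% lower there. Neutrophil markers went from 9174 to 1680 TPM in sum in MPP3 at 24 months, with 2 of the 7 tested called higher and 4 lower. In KOiMOS MPP3 their sum went from 3540 to 7102 TPM. There 4 of 6 were called higher and 0 lower, beside 15.9% and 20.4% of all genes. In bulk samples a change in the mix of cells and a change per cell cannot be told apart. B cell, T and NK cell, macrophage and stromal markers had summed group means of at most 891, 2689.6, 199 and 121 TPM. The B cell markers were lower in T2 of 3-month MPP3 under all 3 scalings: in WTiMOS all 7 tested were called (sum 891 TPM in T1 and 225 TPM in T2, median log2 difference -2.35) and in KOiMOS 5 of 6 (108 and 65.1 TPM, -1.31). Of all genes, 5.96% were called lower in WTiMOS MPP3 at 3 months and 20.4% in KOiMOS MPP3. Transcripts of 4 Y-linked genes were at 0 in T1 of MPP4 at 3 months and of MPP3 at 24 months and at a mean of 0.106 TPM in T1 of MPP4 at 24 months, against 111, 63.4 and 162 TPM in T2, and Xist ran the other way (97.0, 69.2 and 67.9 against 22.8, 20.4 and 29.3 TPM), so sex and fraction cannot be told apart in those 3 tables. In KOiMOS MPP3 the Y-linked sum was 111 TPM in T1 and 57.2 TPM in T2 and Xist 21.8 and 28.9 TPM, and in WTiMOS MPP3 at 3 months the Y-linked sum was 73.2 and 43.6 TPM and Xist 30.02 and 37.0 TPM; all 4 Y-linked genes were called lower in T2 and Xist higher in the former, and 1 of the 5 genes, Eif2s3y, was called, lower, in the latter. The 50 most abundant genes took 24.7 to 24.9% of TPM in T2 of MPP4 at 3 months against 18.9 to 19.0% in T1.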

How the data were processed

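The data were 5 tables of expression per gene from 30 libraries of sorted bone marrow progenitors, prepared with a low-input cDNA kit per the labels' protocols. The authors deposited TPM values (length-corrected transcript levels), each library with the same total, so the read depth is unknown. HISAT2, StringTie, featureCounts, DESeq2 and the build mm10 are named in the submitters' processing notes without versions. No value per gene was changed before use.

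For each table, T2 was tested against T1 over its 6 libraries with limma 3.58.1 in R 4.3.3 (trend and robust options) on log2(TPM + 1), with genes of 1 TPM or more in at least 3 libraries, and Benjamini-Hochberg adjustment over all genes tested. A gene is called at an adjusted p under 0.05. The added 1 TPM makes the fold changes of weakly expressed genes too small. Differences of steps were fitted over 12 libraries of 2 tables with weights per table. The script was tested on simulated data. The alternatives run were median-ratio rescaling, a pseudocount of 0.1, all genes without the filter, all 30 libraries in one fit, no weights, a replicate block, removal of a loess trend (span 0.3) on transcript length and GC content from GENCODE vM21, and leaving out each library.

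The members, the lists and the tests were chosen with earlier results of these data known. Genes were named by rule: up to 2 members called higher and 2 lower with the smallest adjusted p per complex and table, up to 3 per direction for each difference of steps, all succinate dehydrogenase genes, isoform sets, the highest and lowest levels, and up to 3 genes per other list and table. Some results of the rule are not reported here. Other genes named, among them those with printed promoters, and the motif letters were chosen after their values were seen.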

Additional observations from a re-analysis of the deposited data

Results flagged for a closer look

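These results are set apart because the step from T1 to T2 differed between 2 tables in a test of the difference itself (limma, adjusted p under 0.05). Groups of 3 libraries are too small for a test of single outlying libraries. Adjusted p-values and sizes are those of the fits over 12 libraries, and the comparisons share tables.

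Between KOiMOS and WTiMOS MPP3 at 3 months, 7 of 81 members had a higher and 1 a lower step, beside 7.29% and 12.5% of all genes, so the higher count is near the share of all genes. Cox6a2 differed by 2.35 on the log2 scale (limma adjusted p = 0.000323), Cox4i1 by 0.68 (0.00252), Cox5a by 0.42 (0.00645) and Ndufa4 by -0.52 (0.0439). The WTiMOS T2 libraries held Cox6a2 at 0.573, 0 and 0.160 TPM, so the size of its difference depends on the pseudocount.

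Between 24 and 3 months in WTiMOS MPP3, 8 of 81 members had a higher and 1 a lower step, beside 9.69% and 5.31% of all genes, so the higher count is at the share of all genes. Cox4i1 differed by 0.76 (limma adjusted p = 0.00032), Uqcrfs1 by 0.67 (0.00134) and Ndufv2 by -0.44 (0.0252).

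Between 24 and 3 months in WTiMOS MPP4, 17 members had a higher and 56 a lower step, beside 76.4% and 7.4% of all genes. The higher steps included Atp5a1 at 1.74 (limma adjusted p = 6.52e-11) and Uqcrc1 at 2.56 (9.73e-10), and the lower ones were led by Cox6a2 at -2.59 (8.51e-11), Cox6b1 at -1.34 (2.21e-10) and Atp5e at -1.37 (3.08e-10).

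Between MPP4 and MPP3 at 3 months, 56 members had a higher and 16 a lower step, beside 7.43% and 57.7% of all genes. The higher ones were led by Cox6a2 at 3.35 (limma adjusted p = 2.13e-09), Cox4i1 at 1.14 (7.93e-09) and Cox8a at 1.16 (2.41e-08), and the lower ones by Uqcrc1 at -2.46 (2.35e-10), Atp5b at -1.90 (4.01e-10) and Ndufv1 at -2.04 (4.59e-10). The Cox6a2 value comes mostly from its step in MPP3 (-3.23), where T2 libraries held almost none of it, and its step in MPP4 was not called. At 24 months 15 members had a lower step in MPP4 than in MPP3 (4.4% of all genes), led by Atp5l at -0.55 (0.00277), Ndufc2 at -0.46 (0.00715) and Uqcrfs1 at -0.44 (0.00947).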

How the results depend on the processing

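The MPP4 results at 3 and 24 months kept the direction of their member medians under each alternative run. Counts below are members higher or lower in T2, and the cause was not tested unless the alternative's construction gives it. The percentages of all genes called, given earlier, hold for the main fit and not for these counts. After rescaling, KOiMOS MPP3 had 4 lower; WTiMOS MPP3 at 3 months had 0 higher and 10 lower (median -0.20); MPP3 at 24 months had 3 and 28 (-0.23); MPP4 at 3 months had 7 lower (median 1.54); MPP4 at 24 months had 0 higher and 72 lower (-0.75). The summed levels, T1 and T2, became 20262 and 21721 TPM, 24463 and 21334 TPM, 87687.5 and 74405 TPM, 49239 and 143858 TPM, and 76957 and 47133 TPM in that order. With the length and GC trend removed, MPP3 at 24 months had 20 lower (-0.14), MPP4 at 3 months 10 lower (0.26) and MPP4 at 24 months 0 higher. Without a filter, which adds genes to the adjustment, KOiMOS MPP3 had 12 higher and WTiMOS MPP3 at 3 months 1 and 3. With all 30 libraries in one fit, WTiMOS MPP3 had 0 higher at 3 months and 13 and 11 at 24 months.

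For the differences of steps, rescaling gave 12 and 0 (KOiMOS against WTiMOS), 5 and 2 (MPP3, 24 against 3 months), 6 higher (MPP4, 24 against 3 months), 6 lower (MPP4 against MPP3 at 3 months) and 42 lower (at 24 months). Removal of the length and GC trend gave 11 and 3, 3 lower, 9 higher, 8 lower and 1 higher in the same order. The shares of all genes given earlier for the differences of steps hold for TPM as deposited and not for these counts. Whether members stand apart from all genes in them is not shown. A pseudocount of 0.1 gave 4 higher for KOiMOS against WTiMOS, and no weights 2 lower there and 2 lower for MPP3, 24 against 3 months. After rescaling, 7 of the 19 lower members of MPP4 at 3 months turned sign, Sdhb (0.56), Sdhc (0.51), Sdhd (0.24), Uqcrfs1 (0.49), Ndufs7 (0.71), Atp5c1 (0.62) and Atp5d (0.68), as did 5 of the 8 higher ones at 24 months, Ndufs1 (-0.026), Ndufa10 (-0.11), Uqcrfs1 (-0.20), Atp5a1 (-0.23) and Atp5s (-0.19). With the length and GC trend removed, Sdhb (0.14), Sdhc (0.48), Uqcrfs1 (0.048), Ndufs7 (0.16), Atp5d (0.62) and, from higher, Cox6b2 turned sign at 3 months, and Atp5a1 (-0.26) and Ndufa10 (-0.12) at 24 months.

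Same-numbered T1 and T2 libraries showed little common deviation from their group means (correlation from -0.197 to 0.127). With 3 libraries per group these values cannot exclude a pairing. In WTiMOS MPP3 at 3 months all of them were positive (0.020, 0.0094 and 0.048), and the other tables each held negative ones. With the replicate block, 17 and 6 members were called in KOiMOS MPP3, 1 and 7 in WTiMOS MPP3 at 3 months, 8 and 10 at 24 months, 55 and 19 in MPP4 at 3 months and 7 and 49 at 24 months; of 79 named results 76 kept their call. In no table did every library correlate best with its own number.

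Leaving out 1 library at a time gave these ranges, higher and lower: KOiMOS MPP3 10 to 28 and 4 to 9; WTiMOS MPP3 at 3 months 0 to 3 and 2 to 26, at 24 months 4 to 13 and 1 to 12; MPP4 at 3 months 55 to 56 and 18 to 19, at 24 months 4 to 11 and 45 to 54. For the differences of steps the ranges were 4 to 19 and 0 to 2 (KOiMOS against WTiMOS), 5 to 12 and 0 to 3 (MPP3 by age), 16 to 18 and 56 to 57 (MPP4 by age), 55 to 57 and 16 to 17 (MPP4 against MPP3 at 3 months) and 0 to 3 and 5 to 40 (at 24 months). Depth is unknown, so no counting error is attached to a TPM value, and low genes such as Cox6a2 in MPP3 carry the least precision.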
